A study of Danio rerio with 4 samples.

Results

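The collagen chain genes of the zebrafish (Danio rerio) brain were read out in 4 RNA sequencing libraries, 1 per exposure group. A gene was taken as a collagen chain when its symbol in the deposited table begins with col, a type number, the letter a and a chain number. This gave 55 of 32520 gene rows, under 53 symbols, since col6a3 and col19a1 each stand on 2 rows. They fall into 15 fibrillar chains, 9 chains of basement membranes and 31 other chains.

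Collagens are secreted proteins whose chains wind in threes into a triple helix. Fibrillar collagens build the fibres of meninges, skin, tendon and cartilage, type IV forms the sheet-like network of basement membranes such as the one around brain capillaries, and fibril-associated collagens decorate the surface of fibres. In the brain most collagen is known from the meninges and the vessel walls rather than from neurons.

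All libraries come from brain of wild-type fish: a control given 0.1% dimethyl sulfoxide (DMSO), the solvent, and fish given butylparaben, a preservative ester, at 0.01, 0.1 or 1.0 mg/L, here called the low, middle and high dose. The labels name the solvent for the control only. The series' title places the exposure in a study of light sensitivity and memory. How many fish a library holds, their sex and age, and the length of exposure stand in none of the sources used here. With 1 library per group there is no replicate: no test between conditions was possible, and every difference below is a difference between libraries. Totals ranged from 9750590 to 11099317 counts, and mitochondrially encoded genes took 26.3% to 32.3% of them. The control library stands apart by its egg coat genes, with 7420 counts over 23 rows, where the low, middle and high dose held 146, 181 and 139 counts. All 3 doses were set against this 1 control library, so their differences from it are not independent of each other.

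The tissue label was set beside marker lists. Of 17 rows for meningeal fibroblasts, 14 passed the filter described below, and the list summed to 2786 CPM in the control, 3089 CPM at the low dose, 3215 CPM at the middle dose and 3041 CPM at the high dose. CPM are counts scaled to a common library size. Most of that sum was epd, which codes for ependymin of the brain's fluid, and zic1, a transcription factor that neurons of the cerebellum also express. Without epd the list summed to 1316, 1384, 1638 and 1938 CPM in the control, low, middle and high dose. Without epd and zic1 it summed to 481.4, 399.7, 516.2 and 497.1 CPM in these libraries. Of the 14 rows past the filter 1 was called lower, at the low dose, by the rule given below, where 2.41% of all genes were. Under the filter lum, of the small matrix protein lumican, had 10, 9, 8 and 0 counts in the control, low, middle and high dose. Others of this list did not share that order. The more abundant dcn had 252, 212, 266 and 330 counts in these libraries, and ogna had 5, 8, 7 and 9. Endothelial markers summed to 203.6, 253.3, 227.8 and 209.2 CPM in the control, low, middle and high dose. Mural cell markers summed to 179.7, 198.2, 178.2 and 184.3 CPM in the same libraries, and skeletal muscle markers to 33.7, 38.4, 36.4 and 28.5 CPM. Cartilage and bone markers summed to 55.6, 60.8, 42.7 and 45.4 CPM there, with the low dose above the control. Without sox9b, a transcription factor also known from glia, they summed to 29.3, 25.3, 23.3 and 22.5 CPM, with the low dose below the control. These libraries are bulk tissue, so they do not show which cells held the collagen RNA, and fewer cells of a type cannot be told apart from less RNA per cell. The highest fibrillar chain was col2a1b, of type II, which is known from cartilage and the notochord.

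Collagen chains were low in these libraries. Levels are compared between genes in TPM, the authors' expression value that takes transcript length into account. The median of the mean TPM was 0.91 over the 35 chains that passed the filter, where all 16522 genes that passed had a median of 6.53. The filter asked for a mean of 1 CPM or more over the 4 libraries, and it left 12 of 15 fibrillar, 6 of 9 basement membrane and 17 of 31 other chains. Because it uses the mean, a chain or marker gene high in a single library could pass through that library. Only 17 of the 55 rows had a mean of at least 1 TPM and 3 a mean of at least 5 TPM. Of the 20 rows under the filter, col11a2 was the highest with a mean of 0.954 CPM, and the lowest row above it was col4a1 with 1.26 CPM. The epidermal chain col17a1a had 0 counts in every library, and 45 rows had a count in every library.

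**Figure D1:**
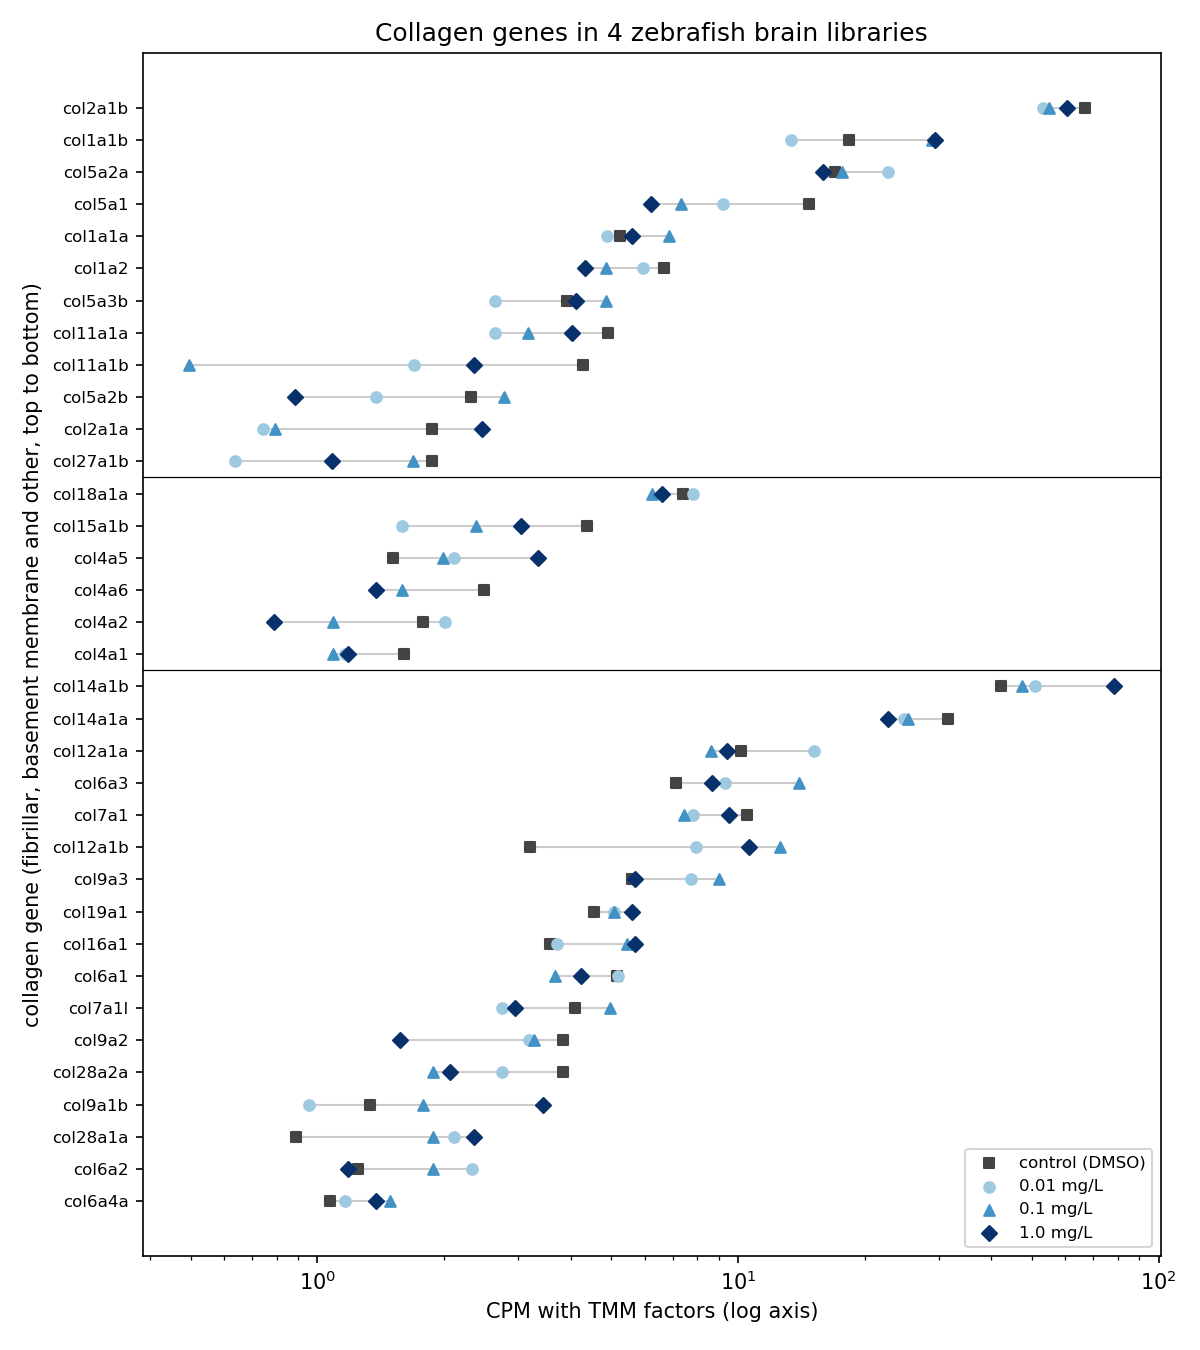
Level of each collagen chain that passed the filter, in CPM on a log axis, by class, with 1 point per library (control and butylparaben at 0.01, 0.1 and 1.0 mg/L). col2a1b and col14a1b lie above 40 CPM in every library, while most chains lie between 1 and 10 CPM.

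The highest collagen transcript per length was col14a1b (ENSDARG00000076623, GRCz11 chromosome 19, 49721 to 61467), a fibril-associated chain of type XIV that binds the surface of fibres. It had 39.8 TPM in the control, 42.7 TPM at the low dose, 46.6 TPM at the middle dose and 77.9 TPM at the high dose. Its counts correspond to a transcript of 1.17 to 1.21 kb in the authors' values, against 5.03 to 5.93 kb for its copy col14a1a, so the per-length level rests on a short gene model. Second was col2a1b (ENSDARG00000011407, chromosome 11, 32007 to 55224) with 15.2, 10.6, 13.03 and 14.7 TPM in the control, low, middle and high dose. The other copies of both genes were lower in every library: col14a1a had 4.87 to 6.24 TPM and col2a1a 0.13 to 0.53 TPM. After them came col1a1b of type I (2.44 to 6.53 TPM), col5a2a of type V (3.94 to 4.63 TPM) and col6a3 of type VI (1.72 to 7.47 TPM). Basement membrane chains were lower still, with col18a1a at 1.39 to 1.57 TPM, col15a1b at 0.38 to 1.2 TPM and col4a5 at 0.27 to 0.64 TPM.

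Summed over their members, the fibrillar chains held 150.2 CPM in the control, 121.1 CPM at the low dose, 137.2 CPM at the middle dose and 139.1 CPM at the high dose. The ratio to the control was 0.806 at the low dose, with a counting interval of 0.747 to 0.870, 0.913 at the middle dose (0.85 to 0.981) and 0.927 at the high dose (0.863 to 0.995). The control held the most and the low dose the least. Scaled by library totals, the ratio at the low dose was 0.743, and without col2a1b the ratio at the middle dose was 0.987. These intervals are exact 95% intervals of the counts and cover counting error only, not the spread between fish.

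The sums of the other chains were 144.0, 157.6, 160.7 and 179.4 CPM in the control, low, middle and high dose, lowest in the control. Their ratio at the high dose was 1.25 (1.16 to 1.33). Without col14a1b that ratio was 0.992. Both the fibrillar and the other chains were higher at the high than at the low dose. The ratios were 1.15 (1.06 to 1.24) for fibrillar and 1.14 (1.06 to 1.22) for other chains. Basement membrane chains summed to 20.5, 17.2, 15.9 and 17.2 CPM in the control, low, middle and high dose, a ratio of 0.775 at the middle dose (0.629 to 0.952), with intervals that included 1 at the other doses. At the middle dose the type IV chains alone had a ratio of 0.835 (0.6065 to 1.145), an interval that included 1. The chains of types XV and XVIII had 0.731 (0.552 to 0.964) there. All 55 rows together came to 314.7, 295.9, 313.7 and 335.7 CPM in the control, low, middle and high dose.

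**Figure D2:**
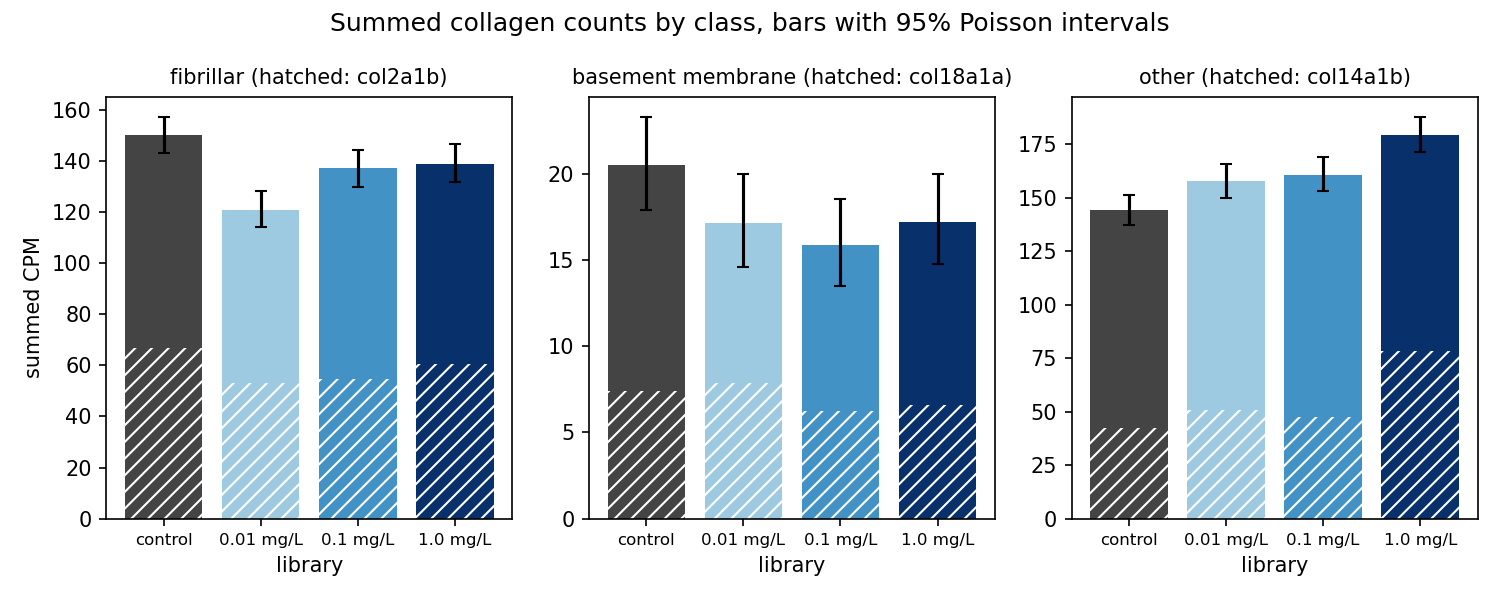
Summed CPM of the fibrillar, basement membrane and other collagen chains in each library, with exact 95% Poisson intervals of the summed counts. The fibrillar sum lies between 121.1 and 150.2 CPM, with the control highest, and the sum of the other chains is highest at the high dose, at 179.4 CPM.

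Below, a call means a log2 ratio of CPM + 0.5 of 1 or more in size together with a counting interval of the ratio that excludes 1. The added 0.5 CPM makes the log2 ratio of low chains smaller than that of the CPM themselves. At the low dose, 1 of the 35 chains was higher than in the control, where 2.15% of all 16522 genes were, and 3 were lower, where 2.41% of all genes were. At the middle dose, 1 chain was higher and 1 lower, against 2.43% and 2.95% of all genes. At the high dose, 3 were higher and 3 lower, against 2.68% and 2.74% of all genes. Low genes were called more often: among the 7768 genes with a mean of 1 to 10 CPM, the range of 29 of the 35 chains, 3.81% were higher and 4.71% lower at the low dose, 4.29% and 5.74% at the middle dose, and 4.81% and 5.19% at the high dose. All 12 calls against the control lay in that range, so 1 to 3 chains of 29 in each direction stand beside a background of 3.81% to 5.74%. In the authors' TPM with no addition, all 12 ratios were at least 2-fold in the same direction. Examples are 0.317 for col15a1b at the low dose and 0.463 for col5a1 at the high dose. A call already asks for 2-fold after 0.5 CPM is added, and TPM come from the same counts. That outcome was thus largely set in advance and is no separate support. With an addition, fewer calls were left: 4 with 2 CPM, and 2 with 0.5 TPM, which is large beside levels mostly under 1 TPM.

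**Figure D3:**
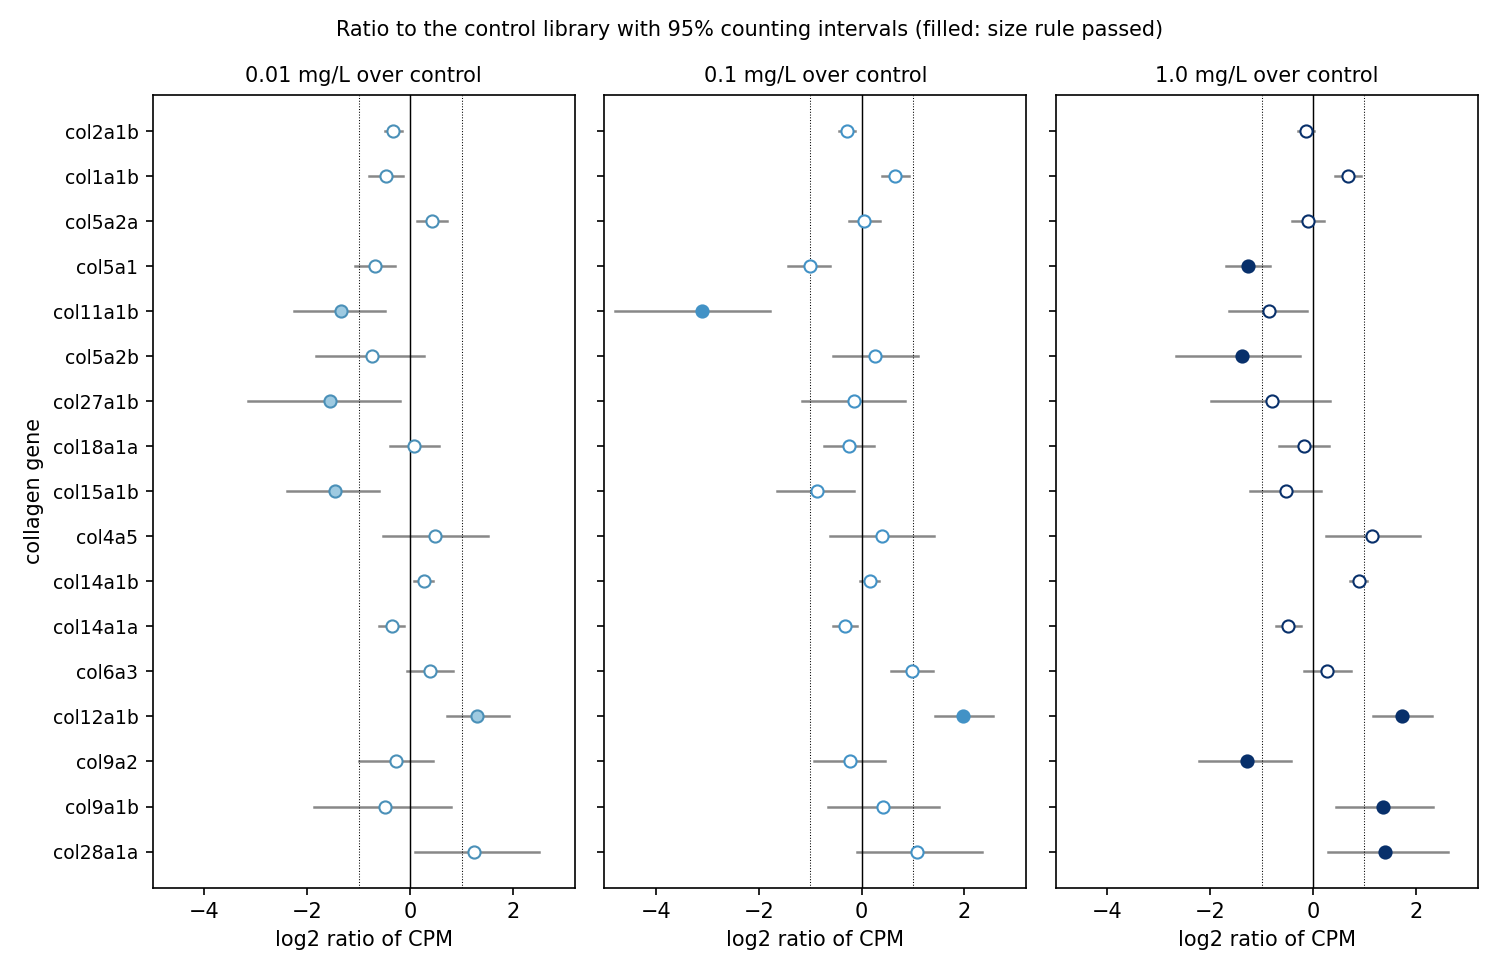
Ratio of CPM to the control on a log axis at 0.01, 0.1 and 1.0 mg/L, with exact 95% counting intervals. Shown are the chains called against the control and the highest of each class by mean TPM, not every chain that passed the filter. Filled points passed the size rule. Intervals exclude 1 for some of these chains and span it for others at each dose. The ratio of col12a1b is above 2 at every dose, and that of col11a1b is 0.116 at the middle dose.

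The chain called higher at every dose was col12a1b (ENSDARG00000019601, chromosome 20, 49451764 to 49681850), a fibril-associated chain of type XII that links fibres to their surroundings and is known in zebrafish from the repair of the cut spinal cord. It had 3.21 CPM (36 counts) in the control, 7.94 CPM (75 counts) at the low dose, 12.6 CPM (127 counts) at the middle dose and 10.6 CPM (108 counts) at the high dose. The control library was the lowest of the 4, and the middle dose the highest. The ratio to the control was 2.48 at the low dose (1.64 to 3.79), 3.93 at the middle dose (2.69 to 5.86) and 3.31 at the high dose (2.25 to 4.97). On the log2 scale with 0.5 CPM added these were 1.19, 1.82 and 1.59, and with 2 CPM added the value at the low dose was 0.93, short of the rule. Its copy col12a1a did not share this order: it had 10.2 CPM in the control, 15.1 CPM at the low dose, 8.63 CPM at the middle dose and 9.44 CPM at the high dose, and passed the rule at no dose.

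Of type XIV, col14a1b at the high dose had 78.5 CPM, against 42.3 CPM in the control, a ratio of 1.86 (1.65 to 2.08) that fell short of the size rule. At the low and middle dose it had 50.7 and 47.3 CPM. col14a1a had 31.6 CPM in the control, 24.8 CPM at the low dose, 25.4 CPM at the middle dose and 22.7 CPM at the high dose, with a ratio of 0.718 (0.606 to 0.8502) at the high dose. The control was therefore lowest of the 4 for col14a1b and highest for col14a1a.

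Type IX collagen, known from the surface of cartilage fibres, is built from chains a1, a2 and a3. At the high dose col9a1b was called higher, with 3.44 CPM (35 counts) against 1.34 CPM (15 counts) in the control, a ratio of 2.58 (1.37 to 5.08). In the same library col9a2 was called lower, with 1.57 CPM (16 counts) against 3.83 CPM (43 counts) in the control, a ratio of 0.411 (0.216 to 0.744). At the low and middle dose col9a1b had 0.953 and 1.79 CPM and col9a2 3.18 and 3.27 CPM. col9a3 had 5.61, 7.73, 9.03 and 5.70 CPM in the control, low, middle and high dose, with 9.03 CPM at the middle dose as the highest. At the high dose col9a1b and col9a2 thus lay on opposite sides of the control, on 35 and 16 counts.

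Of the fibrillar chains, the type V chain col5a1 (ENSDARG00000012593, chromosome 21, 6556635 to 6725780) had the most counts among those called. Type V collagen starts the assembly of type I fibres and limits their width. col5a1 had 14.8 CPM (166 counts) in the control, 9.21 CPM (87 counts) at the low dose, 7.34 CPM (74 counts) at the middle dose and 6.20 CPM (63 counts) at the high dose. The control was the highest library. The ratio was 0.419 at the high dose (0.308 to 0.563), which passed the rule, 0.623 at the low dose (0.475 to 0.812) and 0.496 at the middle dose (0.372 to 0.657), which did not. Its partner col5a2a had 17.01, 22.8, 17.7 and 15.9 CPM in the control, low, middle and high dose, highest at the low dose and with an interval that included 1 at the middle and high dose. The less abundant col5a2b had 2.32 CPM in the control, 1.38 CPM at the low dose, 2.78 CPM at the middle dose and 0.885 CPM (9 counts) at the high dose, where it was called lower with a ratio of 0.382 (0.158 to 0.842). The call of col5a2b was lost when libraries were scaled by their totals.

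Type I collagen, the main collagen of meninges and skin, has the genes col1a1a, col1a1b and col1a2 here. The most abundant of them was col1a1b (ENSDARG00000035809, chromosome 12, 3095699 to 3133483). It had 18.4 CPM in the control, 13.3 CPM at the low dose, 28.9 CPM at the middle dose and 29.4 CPM at the high dose. The middle and high dose lay above the control and the low dose below it, and no ratio to the control passed the rule: 0.727 (0.578 to 0.912) at the low, 1.57 (1.31 to 1.89) at the middle and 1.60 (1.34 to 1.92) at the high dose. The a2 gene col1a2 had 6.68, 5.93, 4.86 and 4.33 CPM in the control, low, middle and high dose, with a ratio of 0.648 at the high dose (0.436 to 0.952). The remaining gene, col1a1a, had 5.26, 4.87, 6.84 and 5.61 CPM in these libraries, with intervals that included 1 at every dose.

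Types II and XI form the fibres of cartilage. col2a1b had 66.7, 53.1, 54.7 and 60.6 CPM in the control, low, middle and high dose, with ratios of 0.797 (0.710 to 0.893) at the low, 0.821 (0.734 to 0.917) at the middle and 0.908 (0.815 to 1.01) at the high dose. The type XI chain col11a1b (ENSDARG00000009014, chromosome 2, 15389193 to 15563194) had 4.28 CPM (48 counts) in the control, 1.69 CPM (16 counts) at the low dose, 0.496 CPM (5 counts) at the middle dose and 2.36 CPM (24 counts) at the high dose. It was called lower at the low dose, with a ratio of 0.396 (0.210 to 0.710), and at the middle dose, with a ratio of 0.116 (0.0360 to 0.290). At the high dose its ratio of 0.552 (0.323 to 0.919) did not pass, so the values did not follow the order of doses. Its copy col11a1a had 4.90, 2.65, 3.17 and 4.03 CPM in the control, low, middle and high dose and was called at no dose. Among the cartilage and bone markers, 8 of 20 rows passed the filter; at the low dose 2 of the 8 were lower (matn3b and phex), at the middle dose 1 (matn3b) and at the high dose 2 (matn1 and hapln1b), and 0 were higher. Of all genes of 1 to 10 CPM, 4.71%, 5.74% and 5.19% were lower at the rising doses. matn3b, which codes for a matrilin of cartilage, had 2.41, 0.635, 0.694 and 0.983 CPM in the control, low, middle and high dose. Every dose lay under the 1 CPM of the filter, so matn3b passed through the control, the library it was then set against. The part of cartilage RNA in the values of types II, IX and XI was not tested.

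The remaining fibrillar call was col27a1b, known in zebrafish from the notochord and spine, with 0.635 CPM (6 counts) at the low dose against 1.87 CPM (21 counts) in the control, a ratio of 0.340 (0.112 to 0.870). At the middle and high dose it had 1.69 and 1.08 CPM. Judged by the counting interval alone, 7 of 12 fibrillar chains lay below the control at the low dose, 4 at the middle dose and 4 at the high dose, while 1 lay above it at each dose. Of all genes, 15.3%, 16.8% and 18.7% lay below by that measure at the rising doses and 14.3%, 19.2% and 18.8% above. The median log2 ratio of the 12 was -0.54 at the low dose, -0.20 at the middle dose and -0.20 at the high dose, where the median over all genes lay between -0.01 and 0.00. For the 6 basement membrane chains it was -0.13, -0.46 and -0.39 at the rising doses, and for the 17 other chains 0.085, 0.248 and 0.022. Over all 35 chains it was -0.24, -0.12 and -0.13.

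Basement membrane chains gave 1 call. The multiplexin col15a1b, found where vessels and muscle meet their surroundings, had 1.59 CPM (15 counts) at the low dose against 4.37 CPM (49 counts) in the control, a ratio of 0.364 (0.190 to 0.660). At the middle and high dose it had 2.38 and 3.05 CPM. col18a1a, whose cleaved end is known as endostatin, differed little between libraries, with 7.39, 7.83, 6.25 and 6.59 CPM in the control, low, middle and high dose and intervals that included 1 at every dose. Of type IV, the pair found in every basement membrane was barely above the filter: col4a1 had 1.60, 1.16, 1.09 and 1.18 CPM in the control, low, middle and high dose and col4a2 1.78, 2.01, 1.09 and 0.787 CPM. These rest on 8 to 20 counts, and no interval against the control excluded 1. The pair col4a5 and col4a6, which lie head to head 752 bases apart and are read in opposite directions, ran differently: col4a5 had 1.51, 2.12, 1.98 and 3.34 CPM in the control, low, middle and high dose and col4a6 2.49, 1.38, 1.59 and 1.38 CPM. For col4a5 the ratio at the high dose was 2.21 (1.2 to 4.21), short of the rule on the log2 scale. col4a3 and col4a4 stayed under the filter with 2 to 12 counts per library.

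Among endothelial markers, 21 of 26 rows passed the filter; 2 of the 21 were higher at each dose and 1 lower at the high dose, where 2.15%, 2.43% and 2.68% of all genes were higher at the rising doses and 2.74% lower at the high dose. Of all genes of 1 to 10 CPM, 3.81%, 4.29% and 4.81% were higher at the rising doses and 5.19% lower at the high dose. The median log2 ratio of the 21 rows was 0.340, 0.128 and 0.055 at the rising doses. The tight junction gene cldn5b had 0.445, 2.12, 2.08 and 3.54 CPM in the control, low, middle and high dose. In the control it lay under the 1 CPM of the filter, so it passed through the doses, where it was higher. The scavenger receptor gene stab1 had 1.25, 3.60, 4.56 and 2.95 CPM in the same libraries. plvapb, a gene of capillaries with pores, had 1.60, 3.18, 3.57 and 4.82 CPM in the control, low, middle and high dose, and slc2a1a, the glucose transporter of brain capillaries, 7.39, 5.93, 3.87 and 2.85 CPM. The part of vessel RNA in the values of the basement membrane chains was not tested.

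The other classes held 1 further call. col28a1a, of a type related to type VI and known from peripheral nerve in mammals, had 2.36 CPM (24 counts) at the high dose against 0.891 CPM (10 counts) in the control, a ratio of 2.65 (1.22 to 6.21), and it had 2.12 and 1.88 CPM at the low and middle dose. Of type VI, which forms beaded filaments, the main col6a3 row (ENSDARG00000077139, chromosome 9, 23914317 to 23990416) had 7.13, 9.32, 13.98 and 8.65 CPM in the control, low, middle and high dose. At the middle dose its ratio was 1.96 (1.48 to 2.62), short of the rule. col6a1 had 5.17, 5.19, 3.67 and 4.23 CPM in the control, low, middle and high dose and col6a2 1.25, 2.33, 1.88 and 1.18 CPM, with intervals that included 1 throughout. The anchoring fibril gene col7a1, known from skin, had 10.5, 7.83, 7.44 and 9.54 CPM in the control, low, middle and high dose. Skin markers summed to 182.1, 209.2, 162.7 and 173.0 CPM in the control, low, middle and high dose, mostly krt8. Of the 10 rows that passed the filter, 1 was called higher at the low dose, where 2.15% of all genes were. At the rising doses 1, 1 and 2 were called lower, where 2.41%, 2.95% and 2.74% of all genes were lower. The adhesion gene epcam, known from epithelia, was called lower at every dose. It had 11.1 CPM in the control, 0 CPM at the low dose, 0.298 CPM at the middle dose and 0 CPM at the high dose. The control alone took epcam past the filter, so these calls rest on the same library that let it pass. No other skin row was called lower at the low or middle dose. The egg coat genes were also far higher in the control library, and a link between them and epcam was not tested. The part of skin RNA in the values of col7a1 was not tested.

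Of the 20 rows under the filter, 19 had a count, and 4 of these passed the same rule in at least 1 comparison. col28a1b had 2 counts in the control, 12 at the low dose, 18 at the middle dose and 5 at the high dose. It was higher than the control at the low and middle dose and lower at the high than at the middle dose. col11a2 had 18 counts at the middle dose, against 7 in the control, and was also higher at the middle than at the low dose. col8a1b was lower at the middle than at the low dose, and the smaller col6a3 row was lower at the high than at the middle dose. Against the control these were 1, 2 and 0 rows higher and 0 lower at the rising doses. Of all 8371 genes under the filter with a count, 2.69%, 2.53% and 2.83% were higher and 3.24%, 3.86% and 3.44% lower. For the middle against the low dose, 1 row was higher and 1 lower, against 2.14% and 2.26% of such genes, and for the high against the middle dose 2 were lower, against 1.71%. Network chains of types VIII and X held 14 to 25 counts per library in all, and the transmembrane chains of type XVII 0 to 4.

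Between doses the control library enters no ratio, though it shares in the filter and in the scaling factors. At the middle against the low dose, 1 chain was higher, col1a1b with a ratio of 2.16 (1.75 to 2.69), where 1.71% of all genes were higher, and 1 was lower, col11a1b with 0.293 (0.0839 to 0.836), where 1.65% were lower. At the high against the low dose, 3 were higher, against 1.85% of all genes, and 0 lower, against 1.54%. They were col1a1b (2.204, 1.78 to 2.74), col9a1b (3.61, 1.70 to 8.55) and col2a1a (3.32, 1.40 to 9.08). At the high against the middle dose, 2 were higher, against 1.91% of all genes: col11a1b (4.76, 1.78 to 15.97) and col2a1a (3.10, 1.36 to 7.95). col5a2b was lower (0.319, 0.132 to 0.695), against 1.35%. Among genes of 1 to 10 CPM the shares were 3.04% higher and 3.08% lower for the middle against the low dose, where 0 and 1 of 29 chains were called. They were 3.59% and 2.85% for the high against the low dose, with 2 and 0 chains, and 3.66% and 2.52% for the high against the middle dose, with 2 and 1 chains. col12a1b was called in none of these pairs: its ratio was 1.59 at the middle against the low dose (1.18 to 2.14) and 0.843 at the high against the middle dose (0.646 to 1.10).

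Shares of 1 chain within its own group do not depend on how libraries are scaled to each other. They were formed for 6 pairs of gene copies and 7 sets of chains that assemble or lie in the same fibre; both were chosen with the values in view, and the shares are given as a description.

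col5a1 took 43.3% of the type V counts of col5a1, col5a2a and col5a2b in the control (38.3% to 48.5%, exact binomial interval), and 27.6%, 26.4% and 26.9% at the rising doses. Formed from TPM, its share was 28.2%, 16.5%, 16.02% and 16.4% in the control, low, middle and high dose. The 3 doses were alike within counting error and all lay below the control. col1a2 took 22.1% of type I counts in the control, 24.6% at the low dose, 11.98% at the middle dose and 11% at the high dose. Here the low dose lay with the control and the middle and high dose lay together. The odds of a col1a2 count relative to the control were 0.481 at the middle dose (0.317 to 0.725) and 0.437 at the high dose (0.284 to 0.666).

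Of the gene copies, col12a1b took 24% of type XII counts in the control, 34.4% at the low dose, 59.3% at the middle dose and 52.9% at the high dose. Formed from TPM, the share was 11.5%, 25.7%, 36.6% and 38.5% in the control, low, middle and high dose, so the high dose and not the middle one was highest on that scale. The transcript length implied for col12a1a was 7.09 kb at the low dose against 4.35 kb in the control. The odds of a col12a1b count relative to the control were 4.62 at the middle dose (2.84 to 7.57) and 3.56 at the high dose (2.19 to 5.85). For type XIV, col14a1b took 57.2% in the control, 67.2% at the low dose, 65.1% at the middle dose and 77.5% at the high dose; formed from TPM, it took 86.5%, 89.8%, 90.2% and 93.8% in these libraries. In type IX, col9a2 took 40.6%, 29.1%, 26.6% and 21.6% of the counts of col9a2 and col9a3 in the control, low, middle and high dose. col4a5 took 37.8%, 60.6%, 55.6% and 70.8% of its pair in the control, low, middle and high dose, on 33 to 48 counts, and differed from the control beyond counting error at the high dose but not at the low and middle dose. The share of the control lay between those of the doses for 5 of the 13 groups. For example, col1a1b took 77.7%, 73.3%, 80.8% and 83.99% of the counts of col1a1a and col1a1b in the control, low, middle and high dose, and col5a2b 11.98%, 5.70%, 13.6% and 5.26% of those of col5a2a and col5a2b.

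**Figure D4:**
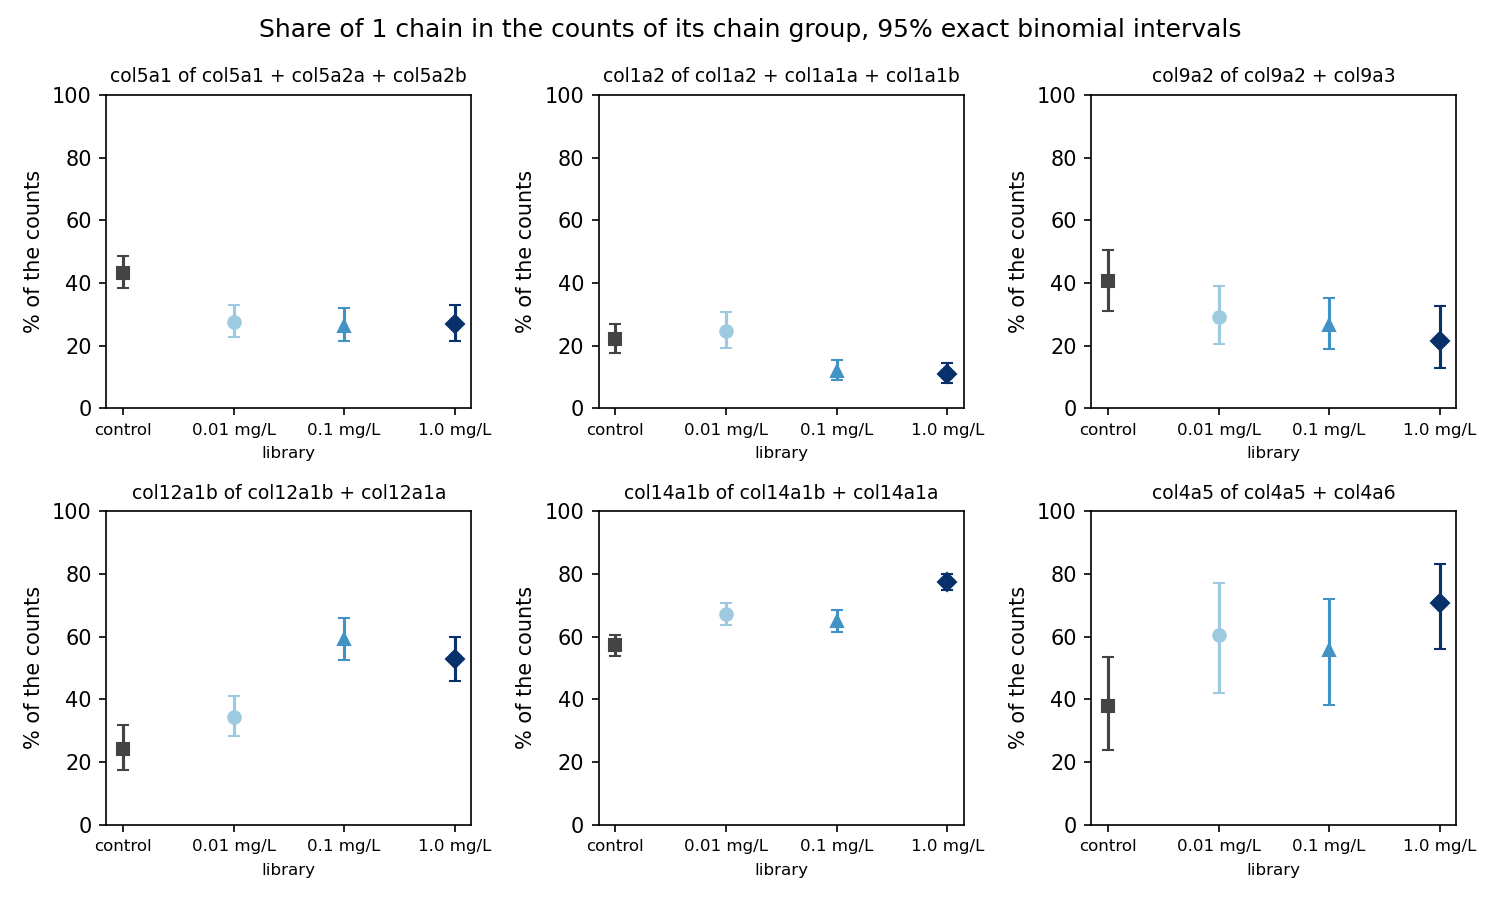
Share of 1 chain in the counts of its chain group, in percent, for 6 groups in each of the 4 libraries, with exact 95% binomial intervals. The share of col5a1 is 43.3% in the control and 26.4% to 27.6% at the doses; that of col12a1b is 24% in the control and 59.3% at the middle dose.

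In the authors' deposited table, where a mark asks for p under 0.05 and a 2-fold difference, 4 collagen rows were marked at the low dose, 4 at the middle dose and 5 at the high dose. These were 2 higher and 2 lower at the low dose, where the authors' deposited table marks 1.69% and 2.28% of all 32520 rows, and 2 and 2 at the middle dose (1.77% and 2.52%). At the high dose the authors' deposited table marks 3 collagen rows higher and 2 lower (2% and 2.29% of all rows). In the authors' deposited table a q-value under 0.05 was given for col11a1b (0.00189) and col12a1b (0.0035) at the middle dose and for col12a1b (0.0294) at the high dose. For col12a1b the authors' deposited table has log2 fold changes of 1.31, 1.98 and 1.73 at the rising doses. With 1 library per group, those p-values cannot rest on replicates of a condition.

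Genes that process, bind, degrade or sense collagen were read from 6 lists. Of 15 cross-linking and processing genes that passed the filter, 0, 1 and 0 were higher and 0, 0 and 1 lower at the rising doses. The shares of all genes that were called, 2.15% to 2.68% higher and 2.41% to 2.95% lower, stand beside these and the counts that follow. The lysyl oxidase gene loxl3b, which cross-links fibres, had 19.04 CPM at the middle dose against 6.77 CPM in the control, a ratio of 2.81 (2.15 to 3.72). serpinh1b, the collagen chaperone of the secretory pathway, had 1.57 CPM at the high dose against 4.63 CPM in the control, a ratio of 0.340 (0.181 to 0.604). The most abundant genes of this list, sec23a and mia3, which take part in exporting collagen from the cell, had 39.7 to 46.7 CPM and 37.7 to 46.1 CPM and were called at no dose.

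Of 17 collagen-binding matrix genes 1 was called, at the high dose: thbs1a, of thrombospondin, had 2.85 CPM against 8.46 CPM in the control. Its copy thbs1b ran the other way there, with 9.83 CPM against 6.77 CPM in the control, a ratio of 1.45 (1.07 to 1.98) short of the rule. The most abundant gene of this list, sparc, had 70.4, 58.0, 53.3 and 53.7 CPM in the control, low, middle and high dose. It was called at no dose, though its ratios of 0.824, 0.757 and 0.763 had intervals that excluded 1. Of 17 basement membrane partners of type IV, lama5, a laminin chain, had 41.6 CPM in the control, 54.2 CPM at the low dose, 15.3 CPM at the middle dose and 83.6 CPM at the high dose. It was lower at the middle dose (0.367, 0.304 to 0.441); at the high dose its ratio of 2.01 (1.79 to 2.25) was just short of the rule once 0.5 CPM was added. hspg2, which codes for perlecan, was higher at the high dose, with 14.6 CPM against 6.502 CPM in the control. The most abundant of these partners, agrn, had 101.6, 118.9, 111.9 and 104.9 CPM in the control, low, middle and high dose and was not called. Of 10 proteases and inhibitors, the collagenase gene mmp13b was higher at the middle dose, with 15.1 CPM against 4.81 CPM in the control (3.13, 2.28 to 4.36). Its copy mmp13a, under the filter, ran the other way there. The larger mmp13a row had 12, 8, 0 and 14 counts in the control, low, middle and high dose, and the smaller 3, 2, 0 and 6. The gelatinase mmp2 and the inhibitor timp2a had 15.5 to 18.1 CPM and 54.3 to 73.3 CPM and were not called.

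Of 9 collagen receptor genes, the integrin chain itga11b was lower at the middle and high dose, with 0.496 and 0.688 CPM against 1.96 CPM in the control. It had 1.38 CPM at the low dose, and the control, its highest library, helped it pass the filter. Its more abundant copy itga11a had 12.1 CPM at the middle dose against 6.68 CPM in the control, a ratio of 1.81 (1.35 to 2.45) that fell short of the rule, and 1.35 (0.988 to 1.86) at the high dose. The receptor kinase ddr1, which binds collagen directly, had 39.8, 37.1, 36.4 and 29.1 CPM in the control, low, middle and high dose and was not called. Of 13 genes of the transforming growth factor beta axis, which drives collagen genes in fibroblasts, skila, an inhibitor of its SMAD proteins, was higher at the low dose, with 5.08 CPM against 2.23 CPM in the control. tgfb1a, the ligand, was lower at the middle dose, with 1.29 CPM against 3.21 CPM in the control. Medians of the 6 lists ran from -0.39 to 0.14 against the control on the log2 scale.

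For some chains the authors' values imply a transcript of different length in each library. Dividing counts by RPKM gives the length in use, and for 29 chains with at least 10 counts in each library it differed by over 1.3 times for 6: col6a3, col7a1, col12a1a, col7a1l, col28a1a and col16a1. For col6a3 it was 4.65 kb in the control, 2.85 kb at the low dose, 2.21 kb at the middle dose and 3.18 kb at the high dose. On the TPM scale col6a3 therefore had 7.47 TPM at the middle dose against 1.72 TPM in the control, a wider gap than in CPM. For col7a1 the length was 2.302 kb at the low dose and 4.07 to 4.64 kb elsewhere, and for col12a1a 7.09 kb at the low dose against 4.35 kb in the control. For col12a1b the length stayed within 1.01 times over the libraries. Whether these lengths reflect other transcripts of the gene was not tested. How many of all genes differ by over 1.3 times was not computed, so this is not shown to be a trait of collagen chains.

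**Figure D5:**
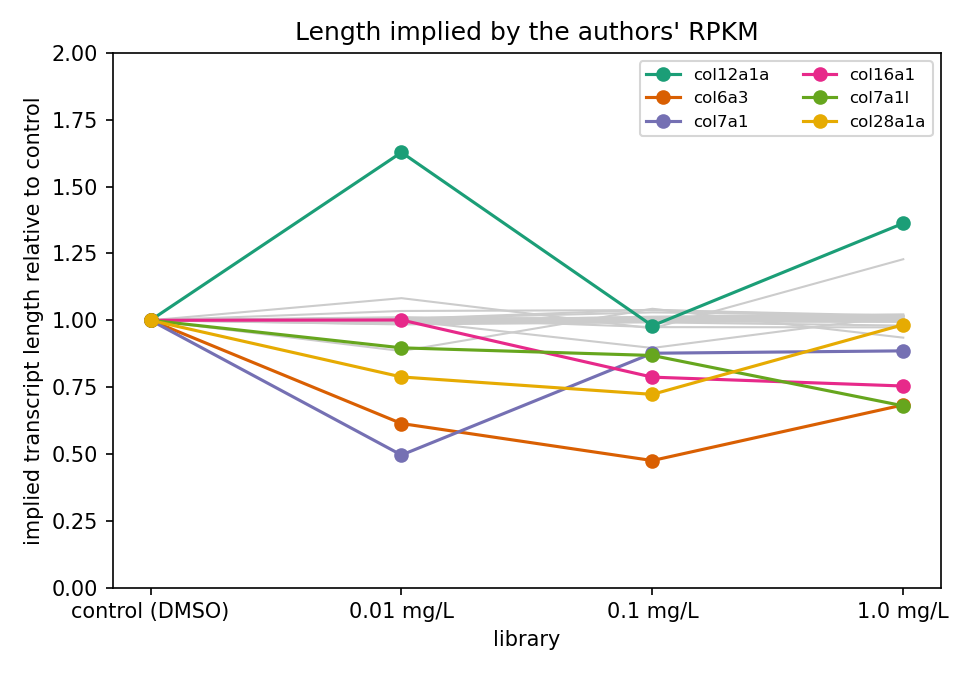
Transcript length implied by the authors' counts and RPKM, relative to the control, per library, for the chains with at least 10 counts in each library. Coloured lines mark the chains whose length differed by over 1.3 times between libraries, and the others are grey. The length of col6a3 runs from 2.21 kb at the middle dose to 4.65 kb in the control.

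Of the 55 rows, 20 overlap another gene row of the table and 9 of them overlap one on the same strand. The share of all gene rows with such overlaps is not given here. The 2 col6a3 rows share 6551 bases on the same strand, and the smaller held 0 to 6 counts per library. col7a1l overlaps 3 other gene rows on its strand, 1 of which held up to 48 counts. The authors' counting shares reads among similar transcripts, so the split between these rows, and between gene copies that are alike in sequence, is uncertain.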

How the data were processed

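Brain RNA of 4 libraries, 1 per group, was read as 151 bp paired ends from a stranded mRNA kit, per the labels' protocols. Per the submitters' processing notes, cutadapt 2.8, STAR 2.7.1a and RSEM 1.3.1 were used with GRCz11. Per the file headers, the deposited table holds RPKM and TPM beside an estimated count for every gene in each library. All counts are whole, yet 141 of the 0 counts have an RPKM above 0, and they were read here to be rounded expected counts from the authors. Each dose also has the authors' own p-value, q-value and log2 fold change against the control in the deposited table. Their test, the annotation release and the strand setting of the counting stand in none of the sources used here.

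CPM were scaled over all genes by TMM (edgeR 4.0.16, R 4.3.3), with factors between 0.931 and 1.04. The filter asked for a mean of 1 CPM or more. Ratios are dose over control, or higher over lower dose, as log2(CPM + 0.5); folds and exact 95% Clopper-Pearson intervals use counts without that addition. Depth limits single chains: a count of 0 allows up to 3 counts, or 0.267 to 0.318 CPM. Intervals cover counting error only. PCR copies are not independent molecules, so the intervals may be too narrow even for that error. The size rule was tried on simulated counts that held counting error only, with library sizes known. Such counts cannot show how the rule behaves under a spread between fish or libraries. Other steps ran on scipy 1.17.1, pandas 2.3.3, matplotlib 3.10.9 and numpy 2.4.6 under Python 3.11.15.

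Named with values were chains called against the control, the 3 highest of each class by mean TPM and their assembly partners. From the partner lists the called genes and some of the most abundant ones were named. smad2, the highest gene of the transforming growth factor beta list, is not among these. Other chains, marker genes and list genes with values, and the chain shares, were chosen after their values were seen. The members and lists were chosen with earlier results of these data known. Alternatives were size factors of DESeq2 1.42.0, library totals, other filters and pseudocounts, the authors' TPM with and without an addition (the form without was chosen after seeing the data), sums without their highest member and leaving out mitochondrially encoded genes.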

Additional observations from a re-analysis of the deposited data

How the results depend on the processing

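No paired analysis was possible because each group holds 1 library. Over 9 settings no call of the 23 named chains turned its direction, 26 values lost their call and 23 gained one. A call asks for 2-fold and the settings reuse the same counts. That no direction turned was thus largely set in advance and is no separate support. Size factors of DESeq2 moved none of the counts, medians or sums beyond the limits used. The cause of the shifts below was not tested. With TMM the median log2 ratio of the 35 chains was -0.24 at the low dose. It was 0.04 at the middle and 0.13 at the high dose, each against the low dose. Scaled by library totals, these medians were -0.34, 0.15 and 0.26. With that scaling 2 chains were higher at the middle against the low dose. The ratios at the low dose were then 0.743 for fibrillar and 1.01 for other chains. The median of all genes then lay at -0.12, 0.14 and 0.17 in these 3 comparisons, and 33.9%, 67.4% and 72.5% of all calls were higher, where TMM gave 47.2%, 50.9% and 54.5%. With library totals 377 of all 16522 genes were higher at the middle against the low dose. With the authors' TPM, taken at 2-fold with no counting interval, the shares of all calls that were higher were 25.9%, 76.3% and 80.3%. The medians of all genes were -0.19, 0.24 and 0.27. These TPM ratios had 0.5 TPM added, which is large beside most chains. With no addition, a setting chosen after seeing the data, the 12 ratios called against the control all stayed at least 2-fold. The calling rule largely set that outcome in advance. With no addition the shares of all calls that were higher were 29.1%, 72.1% and 78.9%. Without addition 2 chains were higher and 6 lower at the low dose (median -0.36), beside 412 and 1004 of all 16522 genes. At the middle dose 4 and 2 chains were, beside 724 and 756 genes. At the high dose 5 chains were higher (median 0.00), beside 862 genes. At the middle against the low dose 8 chains were higher (0.29), beside 959 genes. At the high against the low dose 6 chains were higher (0.30), beside 1211 genes. At the high against the middle dose 3 chains were lower (-0.10), beside 432 genes. With the addition 0 chains were higher and 0 lower at the low dose, beside 171 and 490 of all genes. At the middle dose 2 and 0 chains were, beside 392 and 406 genes. At the high dose 1 and 0 chains were, with a median of 0.00, beside 440 and 353 genes. At the middle against the low dose 2 and 0 chains were, with a median of 0.15, beside 454 and 141 genes. At the high against the middle dose 0 chains were higher, beside 311 genes. The TPM sum of other chains was 1.23 times the control at the middle dose and 1.64 times at the high dose, and the fibrillar one 0.724 at the low dose. Without the highest member, the fibrillar ratio was 0.987 at the middle dose and that of the other chains 0.992 at the high dose.

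With no filter beyond 1 count, 2 chains were higher at the low dose and 3 at the middle dose with a median of -0.01. Of all 24893 genes so kept, 581 and 613 were higher there. At the middle against the low dose 2 chains were higher and 2 lower, beside 461 and 461 of these genes. At the high against the middle dose 3 chains were lower, beside 366 genes. The median at the high against the low dose was 0.00. With a mean of at least 5 CPM, 15 chains and 11258 of all genes were left. At the low dose (median 0.08) and the middle dose (0.05) 0 chains were lower, beside 87 and 108 genes. At the high dose 1 chain was higher and 1 lower, beside 138 and 121 genes. At the middle against the low dose 0 chains were lower, beside 63 genes. At the high against the low dose 1 chain was higher (median -0.10), beside 71 genes. At the high against the middle dose 0 chains were higher or lower (-0.14), beside 73 and 60 genes. A pseudocount of 0.1 CPM gave 2 chains higher at the low dose and 3 lower at the middle dose, beside 453 and 646 of all 16522 genes. It gave 1 chain lower at the high against the low dose, beside 358 genes. At the high against the middle dose it gave 2 chains lower, beside 288 genes. A pseudocount of 2 CPM gave 0 chains higher and 0 lower at the low dose, beside 105 and 196 genes. At the high against the middle dose it also gave 0 and 0 chains, beside 85 and 65 genes. At the high dose it gave 1 and 1, beside 137 and 223 genes. It gave 0 chains lower at the middle against the low dose, beside 76 genes. At the high against the low dose it gave 1 chain higher, beside 86 genes. Leaving out mitochondrially encoded genes added 1 lower chain, col4a2, at the high against the low dose, where 301 of all 16507 genes were lower. Depth limits most chains: the 29 chains of 1 to 10 CPM hold 5 to 166 counts per library, with a median of 32.5.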
